A study of Mus musculus with 8 samples.

Results

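The transcripts described here encode the proteins of the cytosolic ribosome in mouse gastrocnemius (GAS) muscle after prolonged MYTHO knockdown (MYTHO-KD). Members were chosen by gene symbol: *Rpl* or *Rps* followed by a number, with or without an a, l, al, x or y ending, together with *Rplp0*, *Rplp1*, *Rplp2* and *Rpsa*. The rule reached 87 probe sets of the 22206 on the array, and keeping the brightest probe set of each gene left 83 of the 22664 gene symbols listed. Of these, 30 encode proteins of the small subunit, 43 proteins of the large subunit, 3 the P stalk of the large subunit, and 7 are paralogues whose symbols end in l or al.

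Male C57/Bl6j mice of about 10 weeks received an adeno-associated virus (AAV) in GAS that carried a U6 promoter driving a hairpin RNA directed at MYTHO (sh-RNA). This promoter is active in any transduced cell type. The contralateral leg received an AAV with a scramble sh-RNA under the same promoter, so both groups carried virus and hairpin. Muscles were taken 12 weeks later, at 22 weeks of age, and their RNA was read on 4 Clariom S Mouse arrays per group. For each group the authors' table holds an average with its standard deviation (SD) on the log2 scale, and these stand here in place of the values of single arrays. Differences are given as MYTHO-KD less scramble, so that a log2 difference of 1 is a 2-fold rise, and were tested with limma's moderated test from the averages and SDs. Because legs of 1 animal could not be matched, and the kind of average is not stated, p-values describe the spread within each group only. *Mytho*, listed as *D230025D16Rik* (chr8:105225145-105253053, mm10), averaged 7.71 in MYTHO-KD and 10.02 in scramble, which leaves 20.2% of the scramble signal (adjusted p = 0.0138, limma). Markers of adult muscle fibres such as *Acta1* and *Ckm* were bright in both groups: the 15 on the list had a mean average of 18.97 in MYTHO-KD and 18.90 in scramble.

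The cytosolic ribosome joins a small subunit, which decodes the mRNA, to a large subunit, which forms the peptide bond. The P stalk is a flexible arm of the large subunit in which Rplp0 anchors dimers of Rplp1 and Rplp2 and draws in the GTPases of translation, elongation factors among them. Transcripts of ribosomal proteins begin with a run of pyrimidines, the terminal oligopyrimidine (TOP) tract, through which mTORC1 controls mainly their translation. In striated muscle Rpl3l, a paralogue of Rpl3, takes its place in a share of the ribosomes.

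Ribosomal protein transcripts were on the whole slightly higher in MYTHO-KD muscles. Of the 83 members, 70 had a higher average in MYTHO-KD and 13 a lower one, against 46.9% of all probe sets with a higher average. The median difference was 0.25 on the log2 scale, beside -0.01 over all probe sets, and the members ran from -0.22 for *Rpl10a* to 1.19 for *Rplp0*. By limma's moderated test 21 members (25.3%) rose with p under 0.05 before adjustment, and none fell. Over all probe sets the share that rose by the same rule was 6.48% and the share that fell 5.52%. All 83 members were marked as expressed in both groups by the authors' software. Most single differences lay within the spread between arrays: 62 members missed the unadjusted threshold, and only *Rplp0* had an adjusted p under 0.05 (Benjamini-Hochberg), which 0.18% of all probe sets reached upward and 0.0946% downward.

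**Figure D1:**
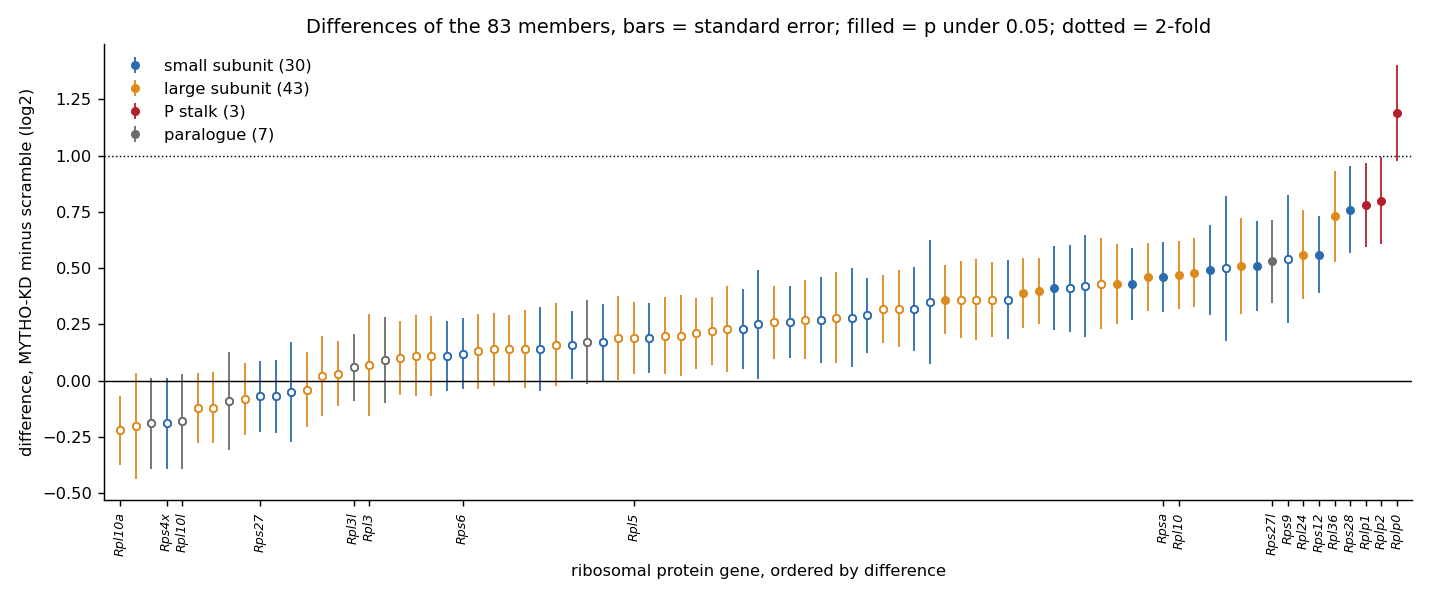
Differences between MYTHO-KD and scramble on the log2 scale (vertical axis) for the 83 ribosomal protein genes in order of size, with bars for the standard error of the moderated test; filled points have an unadjusted p under 0.05, and only some of the genes described are labelled. The P stalk genes stand at the right end with differences of 0.78, 0.80 and 1.19, and no filled point lies below 0.

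The 3 P stalk genes had the 3 largest rises of the 83. *Rplp0*, the anchor of the stalk (chr5:115559467-115563729), averaged 13.40 (SD 0.24) in MYTHO-KD and 12.21 (SD 0.38) in scramble, so the groups lay well apart for their SDs. Its difference of 1.19 (standard error 0.213, 95% interval 0.72 to 1.66) is a 2.28-fold rise with an adjusted p of 0.0473 (limma). *Rplp0* was the only member to pass the study's thresholds of at least 2-fold with p under 0.05, which 0.86% of all probe sets passed upward. The p was computed here from group values, so calls by these thresholds need not match the study's own list. By rise, *Rplp0* ranked 112 among all probe sets. *Rplp2*, an acidic stalk protein (chr7:141447370-141451585), averaged 12.30 (SD 0.15) against 11.50 (SD 0.34), a difference of 0.80 (standard error 0.193, adjusted p = 0.122, limma). *Rplp1*, its dimer partner (chr9:61913283-61914538), averaged 16.54 (SD 0.12) against 15.76 (SD 0.33), a difference of 0.78 (standard error 0.188, adjusted p = 0.122, limma). Both rose by the unadjusted p and neither passed the adjustment. In all 3 the scramble SD was the larger. The adjusted p of *Rplp0* missed the threshold in a pair of other variance models, at 0.214 with no moderation and 0.401 when variances could differ between groups, and was 0.0121 with a prior that follows the signal (limma).

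**Figure D2:**
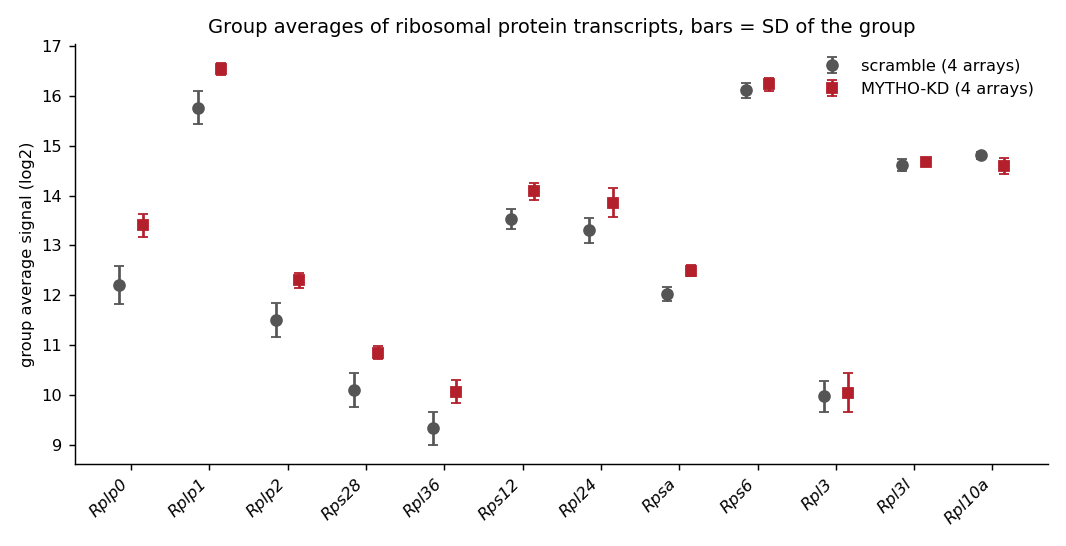
Authors' group averages (log2 signal) of 12 members in scramble (circles) and MYTHO-KD (squares), with bars for the SD of the 4 arrays of a group; heights of different genes are not comparable. The groups are set apart for the P stalk genes, *Rps28* and *Rpl36*, and lie close together for *Rps6*, *Rpl3* and *Rpl3l*.

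Among the 30 small subunit genes, 26 had a higher average in MYTHO-KD and 7 rose at p under 0.05, with a median difference of 0.29. *Rps28* (chr17:33819027-33824562) led them, with an average of 10.85 (SD 0.14) in MYTHO-KD and 10.09 (SD 0.34) in scramble, a 1.69-fold rise (log2 difference 0.76, standard error 0.192, adjusted p = 0.141, limma). *Rps12* (chr10:23785183-23787209) rose from 13.53 (SD 0.20) to 14.09 (SD 0.17), a difference of 0.56. *Rpsa*, whose product is also known as the laminin receptor precursor (chr9:120127766-120132369), rose from 12.03 (SD 0.14) to 12.49 (SD 0.11), a difference of 0.46 with an unadjusted p of 0.0117. Other small subunit genes that rose, named here after their values were seen, included *Rps29* (0.51), *Rps2* (0.43) and *Rps26* (0.41). *Rps9* had a larger difference than these (0.54), but its SDs of 0.34 and 0.61 were wide and its 95% interval ran from -0.08 to 1.16. *Rps6*, the substrate of the S6 kinases, averaged 16.23 in MYTHO-KD and 16.11 in scramble, a difference of 0.12 whose 95% interval was -0.23 to 0.47. *Rps4x*, on the X chromosome, was among the members with a lower average, by 0.19 (95% interval of the difference -0.63 to 0.25).

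The 43 large subunit genes outside the stalk had 37 higher averages, 10 rises at p under 0.05 and a median difference of 0.21. *Rpl36* (chr17:56613395-56614246) averaged 10.06 (SD 0.23) in MYTHO-KD and 9.33 (SD 0.33) in scramble, a 1.66-fold rise (log2 difference 0.73, standard error 0.201, adjusted p = 0.164, limma). With the P stalk and *Rps28* it made up the 5 members that rose at least 1.5-fold with p under 0.05, a rule that 3.54% of all probe sets passed upward and 2.25% downward. *Rpl24*, which forms a bridge between the subunits, rose from 13.30 (SD 0.25) to 13.86 (SD 0.29), a difference of 0.56. Its probe set (chr16:55966275-56008913) is listed for the neighbouring *Zbtb11* as well, so the signal cannot be assigned to *Rpl24* alone. Smaller rises, named to complete the count, were those of *Rpl13* (0.51), *Rpl7* (0.48), *Rpl10* (0.47), *Rpl27* (0.46), *Rpl41* (0.43), *Rpl23a* (0.40), *Rpl39* (0.39) and *Rpl13a* (0.36). *Rpl10* is needed for the joining of the subunits, and *Rpl23a* and *Rpl39* line the exit of the peptide tunnel. *Rpl5* and *Rpl11*, which form a complex with the 5S rRNA and can bind Mdm2 when free of the ribosome, had differences of 0.19 and 0.27 with unadjusted p-values of 0.26 and 0.149 in limma's test; they were chosen for that role after their values were seen. The largest lower averages were those of *Rpl10a* (-0.22, 95% interval -0.56 to 0.12), *Rpl26* (-0.20), *Rpl6* (-0.12) and *Rpl4* (-0.12), and none of these passed the unadjusted threshold.

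Of the 7 paralogues, 4 had a higher average and 3 a lower one, with a median difference of 0.06. *Rpl3l*, the form of striated muscle (chr17:24727820-24736149), averaged 14.67 (SD 0.06) in MYTHO-KD and 14.61 (SD 0.12) in scramble, a difference of 0.06 with a 95% interval of -0.26 to 0.38. Its general counterpart *Rpl3* (chr15:80077781-80083406) averaged 10.04 (SD 0.39) and 9.97 (SD 0.31), a difference of 0.07 with a wider interval of -0.42 to 0.56. *Rps27l*, known as a target of p53 (chr9:66946086-66949516), was the only paralogue to rise at an unadjusted p under 0.05. It went from 10.73 (SD 0.27) to 11.26 (SD 0.20), a difference of 0.53 (unadjusted p = 0.0144, adjusted p = 0.276, limma). *Rps27* itself, whose probe set is also listed for *Rps27rt*, differed by -0.07 (95% interval -0.42 to 0.28). *Rpl10l*, a form known from testis, differed by -0.18 where *Rpl10* differed by 0.47. *Rpl39l* (-0.09) and *Rps4l* (-0.19) averaged under 7 in both groups, near the low end of the scale, where a fall can be hidden. *Rpl36al* (0.17) and *Rpl32l* (0.09) did not pass the unadjusted threshold. Whether a paralogue and its counterpart differed from each other in response was not tested, because their covariance over arrays is not in the table.

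Since most members are bright, their differences were also set against probe sets of the same mean signal. The medians of 20 bins of signal lay between -0.06 and 0.05 on the log2 scale, and 47 members fell in the brightest bin, whose median was 0.01. After the median of its own bin was taken from each member, the median difference was 0.24 and 21 members rose at p under 0.05. No member averaged above 19, where signals near saturation could mask a rise. The brightest probe sets, those of *Rps23* (17.31 in MYTHO-KD, 17.05 in scramble), *Rps2* (17.14 and 16.71) and *Rpl13a* (16.84 and 16.48), were all higher in MYTHO-KD.

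**Figure D3:**
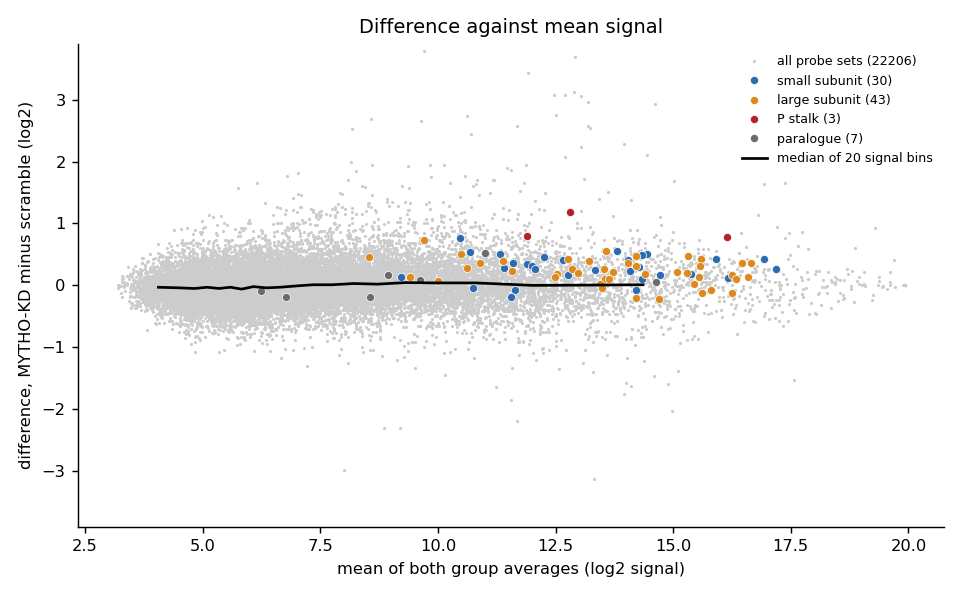
Difference between MYTHO-KD and scramble (log2, vertical axis) against the mean of both group averages (log2 signal) for all 22206 probe sets in grey and the 83 members in colour; the black line joins the medians of 20 bins of equal size. The line stays near 0 over the whole range while most members lie above it.

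The spread within the scramble group was the larger for the small subunit, the P stalk and the paralogues. The median SD over the members was 0.23 in scramble and 0.16 in MYTHO-KD, against 0.27 in either group over all probe sets. The scramble SD was the larger in 55 of 83 members (66.3%), against 49.5% of all probe sets. By class, the scramble SD was the larger in 24 of the 30 small subunit genes and in all 3 P stalk genes. Among the 7 paralogues the scramble SD was the larger in 6 (85.7%), with median SDs of 0.32 in scramble and 0.25 in MYTHO-KD. In the large subunit it was the larger in 22 of 43 (51.2%), with median SDs of 0.17 in scramble and 0.16 in MYTHO-KD. Which arrays carried this spread cannot be read from group values.

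A few ribosomal proteins carry symbols that the rule does not reach. *Fau*, which encodes a fusion with the small subunit protein eS30, rose from 10.47 (SD 0.16) to 11.02 (SD 0.08), a difference of 0.55 (unadjusted p = 0.00405, adjusted p = 0.177, limma). *Rps3a1* differed by 0.17 (unadjusted p = 0.303 in limma's test).

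Other genes of the translation machinery had medians closer to that of all probe sets. At p under 0.05 before adjustment, 6.48% of all probe sets rose and 5.52% fell. Genes of the nucleolus and of ribosome assembly, such as RNA polymerase I subunits and assembly factors, had a median difference of 0.05. Of these 40 genes, 2 (5%) rose at p under 0.05, near the share of all probe sets: *Rrp12* (0.63) and *Polr1d* (0.42). Of 54 genes with *Eif* symbols, initiation factors and their regulators, 3 (5.56%) rose and 4 (7.41%) fell, with a median of -0.08. These shares were also near those of all probe sets. *Eif3f* rose by 0.78, while *Eif2s2* (-0.49) and *Eif4e* (-0.51) fell. Of 12 chaperones and importers that bind ribosomal proteins, 3 fell and none rose; *Nap1l1* had the largest fall, -0.74 (unadjusted p = 0.000657, adjusted p = 0.0914, limma). Of 13 genes for S6 kinases and for mTORC1 control of ribosomes, *Myc* and *Maf1* among them, *Rps6ka3* (-0.60) and *Larp4* (-0.49) fell and none rose. The S6 kinase genes *Rps6kb1* and *Rps6kb2*, named for their role, had higher averages. Their differences were 0.15 and 0.33 (unadjusted p = 0.407 and 0.0743, limma). Among genes of ribosome stress and quality control, 2 of 11 rose and 2 fell: *Cdkn1a* (1.75) and *Edf1* (0.61) rose, *Mdm2* (-0.47) and *Trp53* (-0.43, named to complete the count) fell. The 77 mitochondrial ribosomal proteins, which form a separate ribosome, came nearest to the cytosolic ones among these lists: 57 had a higher average, the median difference was 0.15, and 15 rose and 1 fell, *Mrpl45* by -1.64 on the log2 scale. The difference between the lists was not tested, because they were measured on the same arrays and chosen with results known.

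The 10 genes with *Eef* symbols, which are elongation factors and some of their partners and modifiers such as the kinase *Eef2k*, had a median of -0.03, and 2 of them rose. *Eef1a1*, the general form of the factor that brings aminoacyl-tRNA to the ribosome (chr9:78478449-78489151), rose from 16.12 (SD 0.19) to 17.75 (SD 0.31), a 3.10-fold rise (log2 difference 1.63, standard error 0.191, adjusted p = 0.00684, limma). *Eef1a2*, the form of adult muscle, averaged 16.61 in MYTHO-KD and 16.64 in scramble, a difference of -0.03 (95% interval -0.42 to 0.36). *Eef1b2*, which recharges eEF1A with GTP, rose by 0.68 (adjusted p = 0.212, limma), and *Eef2*, which moves the ribosome along the mRNA, differed by -0.05. *Eef1a1* and *Eef1b2* also stand on a list of TOP transcripts outside the ribosome, of which 5 of 21 rose and 2 fell, with a median of 0.00. On that list *Btf3* fell by 0.69 on the log2 scale (adjusted p = 0.122, limma).

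**Figure D4:**
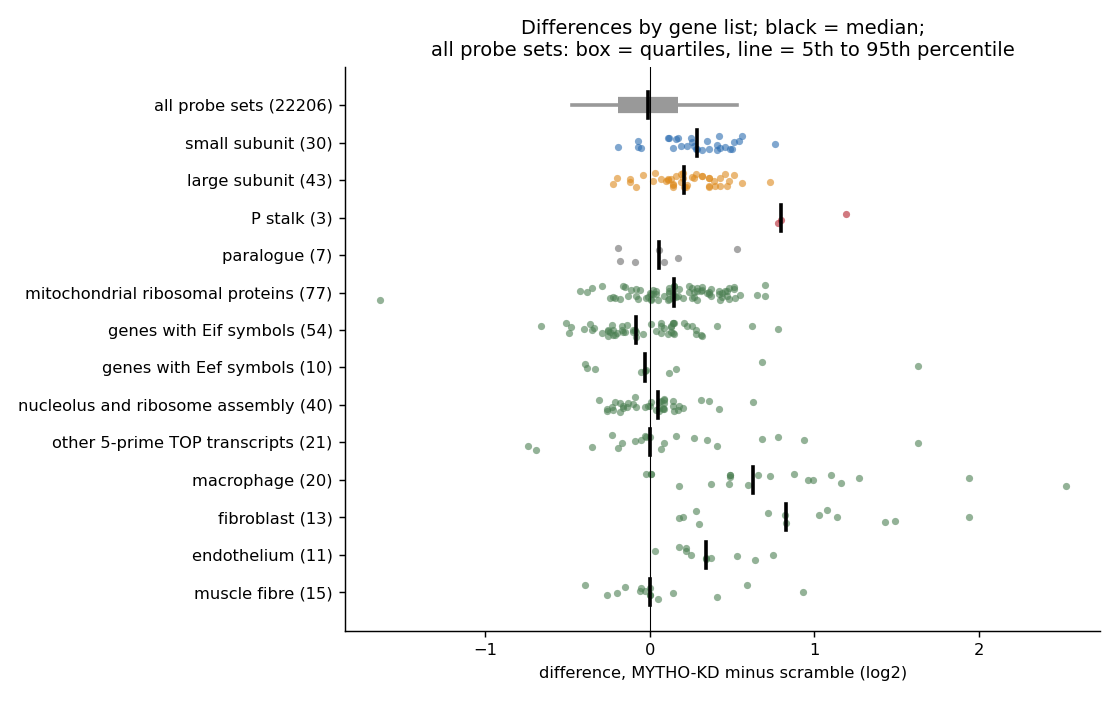
Differences between MYTHO-KD and scramble (log2, horizontal axis) for the members by class and for other gene lists; each point is a gene, the black bar is the median, and for all probe sets the box spans the quartiles and the line the 5th to 95th percentile. Medians were 0.29 for the small subunit, 0.21 for the large subunit and 0.80 for the P stalk, beside 0.15 for mitochondrial ribosomal proteins and -0.08 for genes with *Eif* symbols.

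Markers of other cells moved in the same samples. Their counts are at p under 0.05 before adjustment, by which 6.48% of all probe sets rose and 5.52% fell. Of 20 macrophage markers 12 rose and none fell (median difference 0.63), with a mean average of 7.66 in MYTHO-KD and 6.89 in scramble, and *Cd68*, *Lyz2* and *Ms4a7* rose by 2.53, 1.94 and 0.88. Of 13 fibroblast and matrix markers 7 rose (median 0.83, mean average 10.47 and 9.59), *Bgn*, *Lum* and *Col3a1* among them by 1.94, 1.49 and 1.43. Of 11 endothelial markers 2 rose (median 0.34, mean average 10.04 and 9.69). Of 10 genes of satellite cells and regeneration measured, 1 (*Myh8*, singled out after its values were seen) lay at the top of the scale in both groups with an SD of 0. Of the other 9, 2 rose (median 0.16, mean average 6.59 and 6.25), and none of 12 lymphocyte markers rose or fell at p under 0.05 in limma's test (mean average 5.29 and 5.42). Among 15 markers of muscle fibres 3 rose and 1 fell, but 8 of them averaged above 19 in both groups, where a rise could be masked. Of the other 7, 2 rose and 1 fell, with a median of -0.05. Array signals have no true 0, so no marker can be called absent. The part of these cells in the rise of ribosomal protein transcripts was not tested, and in whole muscle more cells of a type and more RNA per cell cannot be told apart.

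The starts of the member genes were read from RefSeq to look at the pyrimidine run that the symbol rule did not use. A RefSeq window of 300 bases (250 before and 50 after the annotated start, GRCm38.p6) was matched by symbol for 62 of the 83 members. The longest unbroken run of C and T on the transcribed strand, from 20 bases before to 50 bases after the start, had a median of 10 bases in members and 6 bases over all 27025 windows. A run of at least 8 bases was present in 75.8% of members and 25.4% of all windows. The annotated start is not always the first transcribed base, so a run near it is not shown to be the TOP tract of the mRNA. The following 30-base stretches are shown 5′ to 3′ on the transcribed strand, with the longest run within the region searched in capitals. They set 5 of the members with the 7 largest rises (*Rplp0*, *Rplp2*, *Rps28*, *Rps12*, *Rpl24*) beside members that missed the unadjusted threshold (*Rps6*, *Rpl7a*, *Rpl15*, *Rpl10a*). Of the latter, only *Rpl10a* had a lower average in MYTHO-KD. The other two of those 7, *Rplp1* and *Rpl36*, had no matched window, and *Rpl7a* and *Rpl15* were picked for their long runs.
Rplp0 (chr5:115559467-115559496, + strand): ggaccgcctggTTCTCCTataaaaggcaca
Rplp2 (chr7:141447636-141447665, + strand): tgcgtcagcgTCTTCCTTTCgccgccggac
Rps28 (chr17:33824566-33824595, - strand): ctgtcccgaggatTCCTgggtaccgcgtgc
Rps12 (chr10:23787181-23787210, - strand): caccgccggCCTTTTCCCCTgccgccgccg
Rpl24 (chr16:55966295-55966324, + strand): gaagtgacatcaTCTCTgggcgccggggtc
Rps6 (chr4:86857349-86857378, - strand): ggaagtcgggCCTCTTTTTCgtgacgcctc
Rpl7a (chr2:26910789-26910818, + strand): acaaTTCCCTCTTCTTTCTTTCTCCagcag
Rpl15 (chr14:18270967-18270996, - strand): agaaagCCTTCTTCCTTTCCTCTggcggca
Rpl10a (chr17:28328451-28328480, + strand): gcgtggtggcgCCCCCCCagcggccgcaaa

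The length of the run within the region searched did not set apart the members that rose, but several runs met an edge of that region. *Rplp0*, with the largest rise, had a run of 7 bases and *Rpl24* one of 5. *Rps28* had one of 4 within the region searched, at whose edge it was cut, while *Rpl7a* and *Rpl15*, with differences of 0.20 and 0.14, had runs of 21 and 17. The median run was 10 bases in the 15 matched members that rose at p under 0.05 and 10 in the other 47. Across the 62 members, which share arrays and are not independent, Pearson's r between run length and difference was -0.075 and Spearman's rho -0.056. Runs of *Rpl10*, *Rpl41*, *Rps2* and *Rpl39*, which rose at p under 0.05, and of *Rps19*, *Rps23* and *Rps24* reached the end of the window. The run of *Rps25* was cut at the other edge. Their full lengths may be greater, so these comparisons cannot decide whether full runs differ between members that rose and the others. In the whole 300-base window, on either strand, CCGGAAG (a core of ETS family sites) was found in 38.7% of members and 9.1% of all windows, and GGGCGG (a GC box) in 58.1% and 35.9%. The E-box CACGTG was found in 8.1% of members and 7.2% of all windows, and the TATA box, spelled TATAAA, in 9.7% and 14.2%. The 6 members with the TATA box were *Rplp0*, *Rps28*, *Rps2* (0.43), *Rpl39* (0.39), *Rpl36a* (0.23) and *Rpl32l* (0.09). Of these, the last pair did not pass the unadjusted threshold. Among all 62 matched members 15 rose by that threshold, and the TATA box group is small and was not tested. In *Rplp0* the TATA box overlaps the end of the run shown and lies after the annotated start. A match describes letters in the window and is not evidence of binding.

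**Figure D5:**
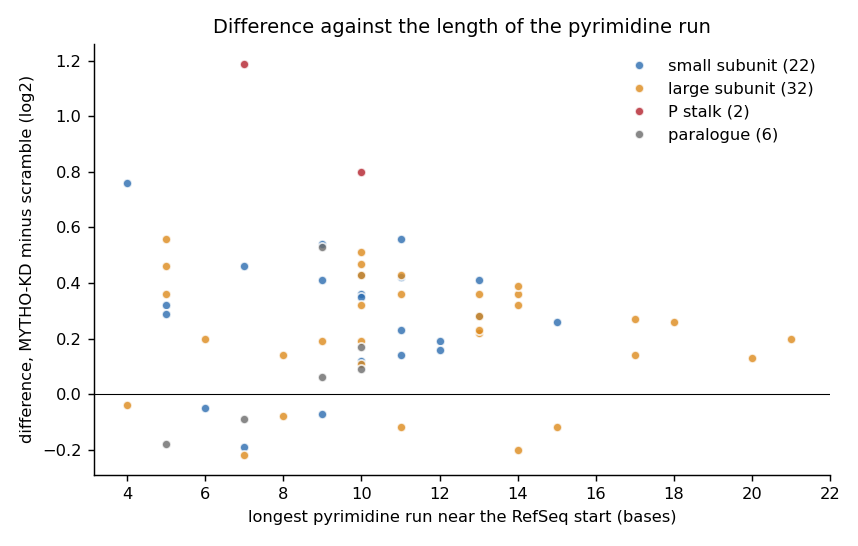
Difference between MYTHO-KD and scramble (log2, vertical axis) against the longest pyrimidine run near the RefSeq start (bases, horizontal axis) for the 62 members with a matched window. Members with runs of 10 bases had differences from 0.09 to 0.80, and *Rplp0*, with the highest difference of 1.19, has a run of 7. Some runs met an edge of the region searched and may be longer.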

How the data were processed

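Total RNA of GAS muscles was hybridized to Clariom S Mouse arrays, 4 of AAV sh-RNA MYTHO and 4 of AAV sh-RNA scrmb. Normalization by the authors used the SST-RMA method of their Transcriptome Analysis Console, and they deposited group averages, SDs (log2) and expression flags for 22206 probe sets (mm10); the submitters' processing notes also name Affymetrix Expression Console and RMA. Columns of fold change, p-value and false discovery rate were not used.

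Variances of both groups were averaged, leaving 6 residual degrees of freedom, then moderated by squeezeVar of limma 3.58.1 in R 4.3.3 (prior SD 0.284, prior degrees of freedom 5.85); p-values are two-sided, Benjamini-Hochberg adjusted across the array. The test was checked on simulated data. With 21 probe sets at an SD of 0, moderation gave a variance above 0. Precision is limited by the number of arrays.

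For genes on several probe sets, the brightest one was used. Named were members past 2-fold or adjusted p, the 8 largest rises and falls, the 3 brightest and dimmest, paralogues, *Rpl3*, *Rpsa*, *Rps6* and the P stalk, and the 3 lowest p-values of each other list; other names are marked, or given for their role. Some single genes are not reported here. *Rps4x* was counted with the small subunit. The members and lists were chosen with earlier results of these data known. Alternatives were other variance models, filters, row choices, centring and thresholds.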

Additional observations from a re-analysis of the deposited data

How the results depend on the processing

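No paired analysis was possible because the table holds group averages, so neither the replicate block nor leaving out an array could be run. The count of 21 members higher at p under 0.05 was 8 at p under 0.01. With probe sets listed for 1 symbol alone it was 13 of 66, because that setting leaves out 17 of the 83 members. In the other settings the count lay between 20 and 27. Of the 21, 19 were kept without moderation and 18 with unequal variances. The count of 0 lower members became 1 without moderation (*Rpl10a*). The single member at an adjusted p under 0.05 became 0 without moderation, 0 with unequal variances and 2 with a trend and robust prior, *Rplp1* being added (adjusted p = 0.0338, limma). At 1.5-fold 5 members were called in place of 1. The median of 0.25 lay between 0.23 and 0.26 in all settings run. Restriction to probe sets expressed in both groups was added after seeing the data and left the median at 0.25. For the 27 members named by rule, the side of the unadjusted threshold changed only for *Rpl10a*, without moderation. Other named members, such as *Rps29* and *Rpl13*, were not among these 27. The calls lost without moderation or with unequal variances belonged to members outside the 27. With 4 arrays per group, 62 of 83 differences could not be told from the spread between arrays.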

Other observations

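Of the members' probe sets, 11 are also listed for a small nucleolar RNA gene, several of which lie in introns of ribosomal protein genes. Of these 11, 10 had a higher average in MYTHO-KD and 7 rose at p under 0.05 (median difference 0.40), among them *Rplp2*, *Rps12*, *Rpl13*, *Rpl10*, *Rps2*, *Rpl23a* and *Rpl13a*. Of the 66 members listed under 1 symbol, 56 had a higher average and 13 rose (median 0.23). This grouping was made after the values were seen and was not tested.

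The 3 genes with more than 1 probe set gave differences of the same sign on each. For *Rpl29* the brightest probe set lies on chromosome 1 (43189119 to 43189773) and has the same averages, 16.38 in MYTHO-KD and 16.28 in scramble, and the same SDs as one on chromosome 5, while the probe set on chromosome 9 gave 13.95 and 13.88. For *Rpl31* the differences were 0.22 (chromosome 1) and 0.10 (chromosome 7). For *Rps26* they were 0.41 (chromosome 10) and 0.16 (chromosome 12, where both averages lay under 7). Ribosomal protein genes have many near-identical processed copies in the genome.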
